A study of Mus musculus with 15 samples.

Results

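The urea cycle and the handling of ammonia were followed in mouse liver through 10 genes. These were Nags, Cps1, Otc, Ass1, Asl, Arg1, Slc25a15, Slc25a13, Gls2 and Glud1. They were taken from a table of 24965 genes by symbol alone, and each symbol stood on 1 row. All 10 were among the 13335 genes that the authors tested with an adjusted p.

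The study measured RNA in livers of 15 male C57BL/6J mice of 9 weeks of age. All carried floxed Gata4 alleles (Gata4fl/fl), and all were given AAV8, an adeno-associated virus, at 8 weeks, 7 days before the livers were taken. In Gata4LKO mice the virus was AAV8-Tbg-Cre, which drives Cre recombinase from a promoter active in hepatocytes, and in Control mice it was an empty AAV8. Fasted livers came after 12 h without food, from 4 Gata4LKO and 4 Control mice. Refed livers, from 3 Gata4LKO and 4 Control mice, came after 12 h of fasting and 12 h on a diet with 69% sucrose and 10% fat. The values below compare fasted Gata4LKO with fasted Control livers, the reading of the deposited table explained with its processing. The table itself does not name its groups. They were worked out from genes with 1 read, which do not separate this reading from refed against fasted Control livers. Other values were not used for that choice, which rests on the result being named for genotype. That name does not say which genotype was set over the other. Every direction therefore also rests on the genes with 1 read. The refed livers entered the authors' model and the mean of each gene, but they are in no comparison here. The promoter aims Cre at hepatocytes and not at other liver cells. Liver RNA pools all cells, so that fewer cells of a type and less RNA per cell cannot be told apart.

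The urea cycle turns ammonia, which is toxic to the brain, into urea for excretion, and the liver is the main organ that runs the whole cycle. It begins in the mitochondria of hepatocytes around the portal vein, where ammonia and bicarbonate become carbamoyl phosphate and then citrulline. It ends in the cytosol, where citrulline takes up the nitrogen of aspartate, fumarate is released, and arginine is split into urea and ornithine. Ornithine returns to the mitochondria for the next turn. Fasting raises the load on the cycle, because amino acids are then broken down for glucose.

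Of the 10 genes, Otc was the 1 that passed the test, and it fell in the Gata4LKO livers. Otc encodes ornithine transcarbamylase, the mitochondrial enzyme that joins carbamoyl phosphate to ornithine. Fold changes are Gata4LKO over Control on the log2 scale, and the authors' deposited table put that of Otc at -0.70 ± 0.08 (SE, 4 Gata4LKO against 4 Control livers). This is 38.3% less RNA, with a 95% interval from 44.3% to 31.5% less on the linear scale. By the authors' DESeq2 Wald test the adjusted p was 1.68e-16, and 3 of the 13335 tested genes had a larger Wald statistic in either direction. The other 9 genes did not pass that test, with adjusted p between 0.656 and 0.989 and estimates between -0.14 and 0.18 log2 units, per the authors' deposited table.

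**Figure D1:**
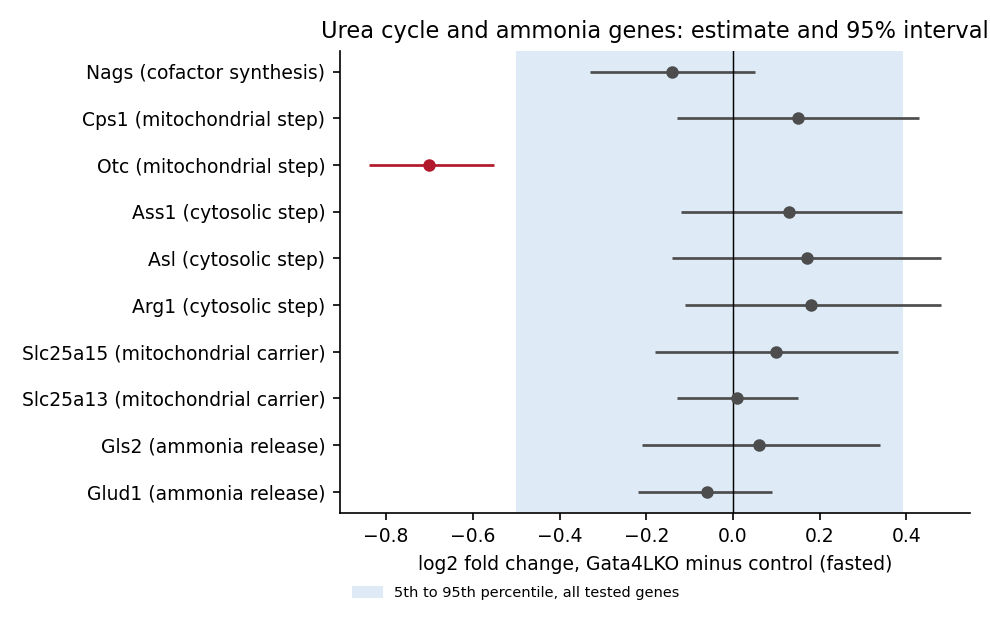
Log2 fold change of each of the 10 genes between fasted Gata4LKO and fasted Control livers (x axis), with points for the deposited estimates and bars for 95% intervals; red marks a gene called at an adjusted p under 0.05. Otc lies at -0.70, outside the shaded band from -0.50 to 0.39 that holds the 5th to the 95th percentile of all tested genes, and the intervals of the other 9 genes include 0.

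A gene is said here to be called where the deposited adjusted p was under 0.05. That rule took 292 of 13335 tested genes (2.19%), 214 of them lower in Gata4LKO livers (1.60%) and 78 higher (0.585%). Among the 2384 tested genes with a mean of at least 1000 normalized counts, a level that all 10 genes reached, 3.82% were called. The count among the 10 was 1 lower and 0 higher, and it rests on Otc. At an unadjusted p under 0.05 the count was also 1 of 10, against 11.4% of all tested genes. The median estimate of the 10 genes was 0.08 log2 units, beside 0.01 for all tested genes.

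Since Otc was the gene that fell, the sequence just upstream of its start is shown, beside that of Nags, which had the next lowest estimate and was not called. Both are the 250 bases before the annotated start, 5′ to 3′ on the strand of the gene, from RefSeq on build GRCm38.p6. Otc lies at chrX:10252055-10252304 on the plus strand, and Nags at chr11:102145263-102145512 on the plus strand. Capitals mark matches, on either strand, to a GATA motif (AGATAA and AGATAG, or with T first TGATAA and TGATAG), the letters that GATA factors are known to recognise.

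Otc: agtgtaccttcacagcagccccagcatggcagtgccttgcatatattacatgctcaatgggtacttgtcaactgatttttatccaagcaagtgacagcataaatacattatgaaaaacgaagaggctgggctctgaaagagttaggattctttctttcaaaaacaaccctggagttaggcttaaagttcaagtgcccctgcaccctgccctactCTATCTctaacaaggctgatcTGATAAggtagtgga

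Nags: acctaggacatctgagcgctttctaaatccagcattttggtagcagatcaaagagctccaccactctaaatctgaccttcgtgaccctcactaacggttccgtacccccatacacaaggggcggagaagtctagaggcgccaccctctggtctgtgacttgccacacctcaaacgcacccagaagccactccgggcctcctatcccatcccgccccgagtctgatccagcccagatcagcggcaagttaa

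The Otc window held 2 GATA matches. The first, AGATAG on the opposite strand, began 36 bases before the start, and the second, TGATAA on the strand of the gene, began 15 bases before it. At least 1 match stood in 26.5% of the 32851 promoter windows of the same 250 bases in the RefSeq table, and 2 or more stood in 6.40%. With 50 bases after the start included, the share with at least 1 match was 29.8%. Windows were found for 6 of the 10 genes, namely Otc, Nags, Ass1, Glud1, Slc25a13 and Slc25a15, the last with 2 windows. The windows of the other 5 genes with one held none of these letters. Cps1, Asl, Arg1 and Gls2 were not looked up elsewhere. Neither the C/EBP palindrome TTGCGCAA (0.183% of all windows of 300 bases), the CRE TGACGTCA (1.79%) nor the TATA box TATAAA (13.6%) matched in any of these 7 windows, searched on both strands. The shorter CRE core TGACG, which is contained in the full CRE and stood in 20.8% of all windows, matched in Nags, 32 bases after the start, and in Slc25a13, 13 bases before it. A match is a spelling in the reference sequence, and binding of a factor was not measured.

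**Figure D2:**
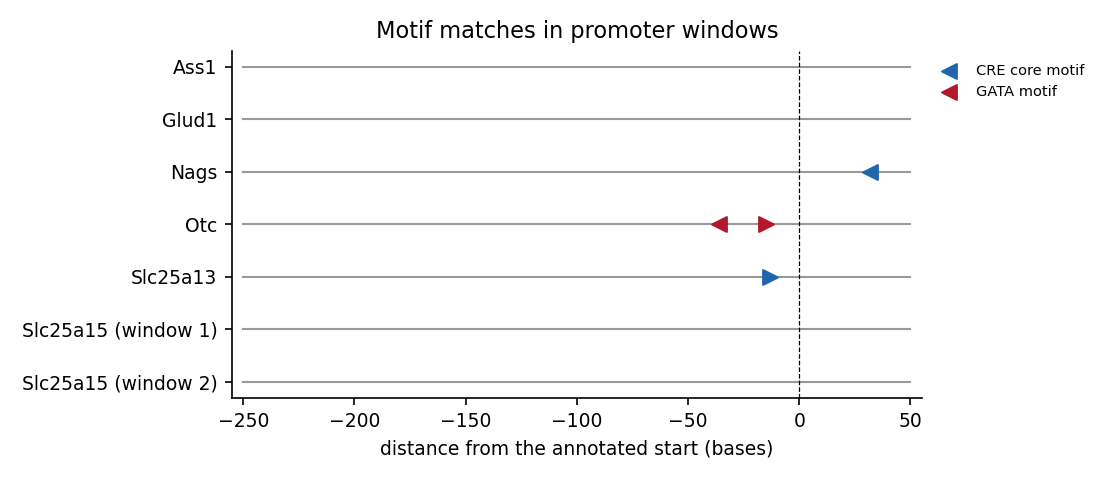
Motif matches in the 7 promoter windows of the 6 genes that have one, placed by distance in bases from the annotated start (dashed line at 0); arrowheads point right for the strand of the gene and left for the opposite strand. The 2 GATA matches stand in Otc, 36 and 15 bases before the start, and the CRE core matches stand in Nags and Slc25a13.

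The mitochondrial entry of the cycle holds Nags, Cps1 and Otc. Nags makes N-acetylglutamate, the cofactor without which Cps1 is inactive, and Cps1 makes carbamoyl phosphate from ammonia and bicarbonate. Otc (ENSMUSG00000031173, chromosome X, 10252305 to 10321024, mm10) averaged 6069.6 normalized counts over all 15 livers, per the authors' deposited table. Cps1 (ENSMUSG00000025991, chromosome 1, 67123026 to 67231259) had a mean of 106525 normalized counts, the 20th highest count of all genes. The authors' deposited table put its change at 0.15 ± 0.14 log2 units (SE), with a 95% interval from 8.5% less to 35.0% more RNA in Gata4LKO livers. Nags (ENSMUSG00000048217, chromosome 11, 102145513 to 102149477) had the lowest mean of the 10, at 1078 normalized counts. The authors' deposited table put its change at -0.14 ± 0.10 log2 units (SE), with a 95% interval from 20.4% less to 3.6% more RNA. The 3 members of this first stage thus had a called fall in Otc and estimates of either sign, not called, in Cps1 and Nags. The exons of Nags overlap an antisense gene, Gm11586, which had a mean of 31.5 normalized counts. Without the strand setting of the count, which is not given in the sources used, reads of the overlap are uncertain.

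The cytosolic steps are run by Ass1, Asl and Arg1. Ass1 joins citrulline and aspartate, Asl splits the product into arginine and fumarate, and Arg1 releases urea. Their changes in log2 units, per the authors' deposited table, were 0.13 ± 0.13 for Ass1, 0.17 ± 0.16 for Asl and 0.18 ± 0.15 (SE) for Arg1, and none was called. With Cps1, these 3 had the highest estimates of the 10, and each interval included 0. For Ass1 (ENSMUSG00000076441, chromosome 2, 31470207 to 31520672) the 95% interval ran from 8.0% less to 30.8% more RNA in Gata4LKO livers. For Asl (ENSMUSG00000025533, chromosome 5, 130011258 to 130029247) it ran from 9.0% less to 39.1% more. For Arg1 (ENSMUSG00000019987, chromosome 10, 24915221 to 24927484) it ran from 7.6% less to 39.5% more. Arg1 is also made by some macrophages. The estimates of 10 of 10 Kupffer cell and macrophage markers were negative, between -0.50 and -0.04 on the log2 scale, with 0 called by the authors' DESeq2 Wald test and 1 at an unadjusted p under 0.05. Their means summed to 2173 normalized counts, and Arg1 itself had a mean of 29903. Counts of these markers do not measure Arg1 RNA in macrophages, and the part of those cells in the value of Arg1 was not tested. Arg2, the mitochondrial arginase of other tissues, had a mean of 1.89 normalized counts and no adjusted p.

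The mitochondrial carriers are Slc25a15, which exchanges ornithine and citrulline across the inner membrane, and Slc25a13, called citrin, which exports the aspartate that Ass1 uses. Slc25a15 (ENSMUSG00000031482, chromosome 8, 22375551 to 22398597) was listed at 0.10 ± 0.14 log2 units (SE) by the authors' deposited table. Its substrate exchange serves the reaction of Otc, and its interval ran from 11.7% less to 30.5% more RNA in Gata4LKO livers. Slc25a13 (ENSMUSG00000015112, chromosome 6, 6041218 to 6217173) had the estimate closest to 0, at 0.01 ± 0.07 log2 units (SE) and with an interval from 8.9% less to 10.9% more. The sign of that estimate turned negative when log2 fold changes were centred on all tested genes. Of the related carriers, Slc25a12, the aspartate carrier of other tissues, had a mean of 390.0 normalized counts, and Slc25a2, another ornithine carrier, had 1.74 and no adjusted p.

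Ammonia is released for the cycle by Gls2, the liver type of glutaminase, and by Glud1, glutamate dehydrogenase. Gls2 (ENSMUSG00000044005, chromosome 10, 128194457 to 128210004) was listed at 0.06 ± 0.14 log2 units (SE) by the authors' deposited table, with an interval from 13.7% less to 26.3% more RNA. Its exons overlap those of Spryd4 on the opposite strand, which had a mean of 487 normalized counts against 4093 for Gls2. Glud1 (ENSMUSG00000021794, chromosome 14, 34310727 to 34345265) was at -0.06 ± 0.08 log2 units (SE), with an interval from 14.0% less to 6.8% more. Neither gene was called.

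The precision of the table bears on how the 9 uncalled genes are read. The smallest absolute Wald statistic among called genes was 3.27, so each standard error gives the smallest change that would have been called. A fall of 15.1% would have been enough for Slc25a13, 16.5% for Glud1, 19.7% for Nags, 27.7% for Cps1 and 29.8% for Asl, the gene of the 10 with the largest standard error. A fall of the size estimated for Otc, 38.3%, was therefore larger than the fall that each of the 10 genes needed. Nor did any 95% interval of the other 9 reach it, since the lowest bound among them was 20.4% less RNA, for Nags. Rises were bounded less closely, with the highest bound at 39.5% more RNA, for Arg1. Differences between members were not themselves tested, because the table gives no covariance between genes.

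**Figure D3:**
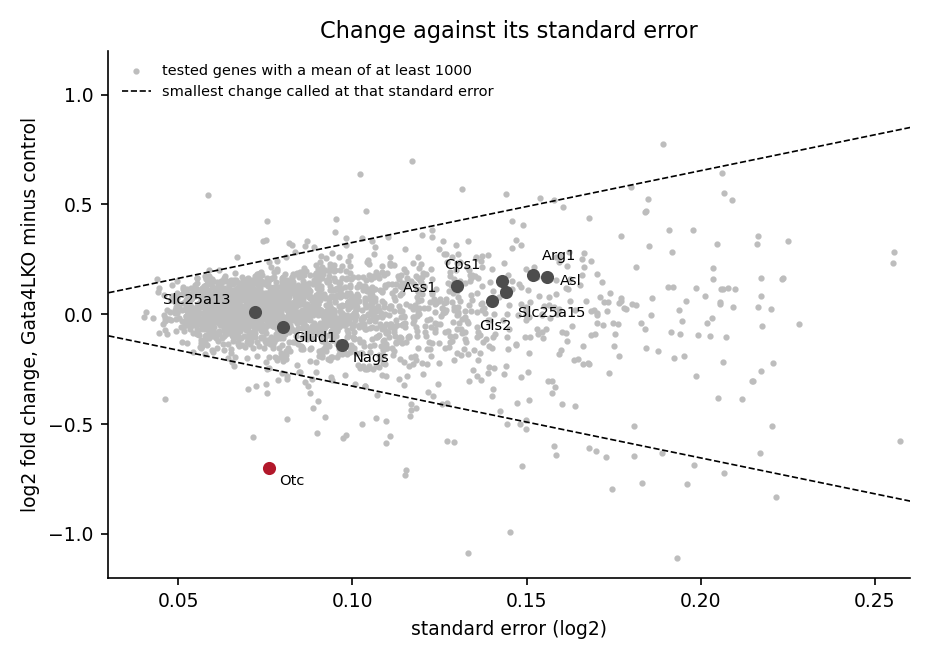
Log2 fold change between fasted Gata4LKO and fasted Control livers (y axis) against its standard error on the log2 scale (x axis); labelled points are the 10 genes, grey points are tested genes with a mean of at least 1000 that fall within the axes, and dashed lines mark the smallest change called at each standard error (a Wald statistic of 3.27). Otc lies well below the lower line at a standard error of 0.076, and the other 9 genes lie between the lines.

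The standard error of a comparison of 4 with 4 livers implies a fitted spread between livers of a group when the model uses 1 dispersion per gene for all 15 livers. DESeq2 by default draws that dispersion towards a trend over genes of like abundance, so the value is a fitted one and not the observed spread within a group, and values per liver are not used here. The implied coefficient of variation was 7.3% for Otc, 7.0% for Slc25a13, 7.8% for Glud1 and 9.0% for Nags. It was 12.7% for Ass1, 13.7% for Gls2, 14.1% for Cps1 and for Slc25a15, 14.9% for Arg1 and 15.3% for Asl. The members thus fell into 4 with an implied spread of 9.0% or less and 6 with 12.7% or more. For 9 of the 10, all but Nags, the mean lay among the top 10% of tested genes, where the median implied spread was 8.3%. Within that top 10%, 38.1% of genes had a smaller standard error than Otc, 32.7% than Slc25a13 and 42.7% than Glud1, whereas between 80.7% (Ass1) and 87.6% (Asl) had a smaller one than the 6 members of larger implied spread.

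**Figure D4:**
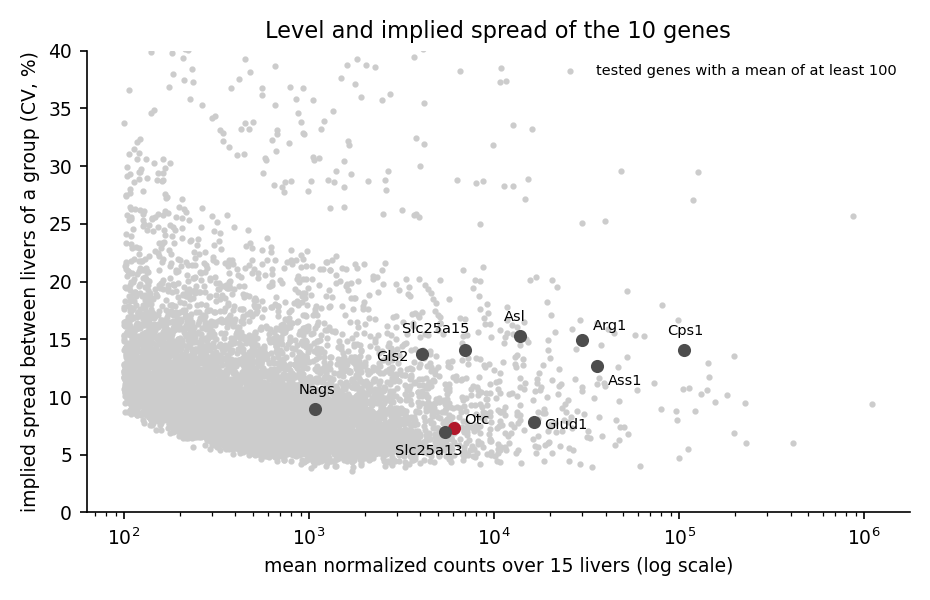
Implied coefficient of variation between livers of a group in percent (y axis, cut at 40%) against the mean of normalized counts over 15 livers (x axis, log scale); labelled points are the 10 genes, with Otc in red, and grey points are tested genes with a mean of at least 100. Otc, Slc25a13, Glud1 and Nags lie at 9.0% or below, and Ass1, Gls2, Cps1, Slc25a15, Arg1 and Asl between 12.7% and 15.3%.

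Levels of different genes can be compared only per length. Divided by the length of all annotated exons (GENCODE M21), the mean over 15 livers was 19176 normalized counts per kb for Cps1, 14954 for Ass1 and 13422 for Arg1, and these 3 ranked 47th, 57th and 65th of 24944 genes. On the same scale of level per kb, Glud1 stood at 3895, Asl at 2871, Otc at 1431, Slc25a13 at 1423, Slc25a15 at 1229, Gls2 at 1178 and Nags at 380.0 normalized counts per kb. Among the enzymes that carry the cycle itself, Otc thus had the lowest level per kb of exon. These are means over fasted and refed livers of both genotypes, given without a spread, so that neighbours in the order could not be tested. Together the 10 genes took 1.26% of all normalized counts.

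Other genes around the cycle were read from 5 lists with 59 genes, of which 54 had an adjusted p. By the authors' DESeq2 Wald test 0 of the 54 were called, while 5 stood at an unadjusted p under 0.05 (9.26%, against 11.4% of all tested genes), and their median estimate was -0.04 log2 units.

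Enzymes of ammonia, glutamate and glutamine numbered 13 tested, with 0 called, 2 at an unadjusted p under 0.05 and a median of -0.03 log2 units. Got2, the mitochondrial aminotransferase that makes aspartate, the other nitrogen donor of the cycle, was listed at -0.18 ± 0.06 log2 units (SE) by the authors' deposited table. The adjusted p of Got2 was 0.0615 in their DESeq2 Wald test. With log2 fold changes centred on the median of all tested genes, Got2 passed, at an adjusted p of 0.0440, and with centring within 10 bins of the mean at 0.0333. Asns, the asparagine synthetase, was listed at -2.36 ± 0.87 log2 units (SE) by the authors' deposited table, and its wide interval, from -4.07 to -0.66, went with an adjusted p of 0.154. Glul, which makes glutamine from leftover ammonia around the central vein, was at -0.03 ± 0.14 (SE).

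The arginine, ornithine and proline branch had 10 tested genes, 0 called and 1 at an unadjusted p under 0.05, with a median of -0.01. Its smallest p belonged to Ddah1, an enzyme that degrades methylated arginines, and the authors' deposited table put it at -0.41 ± 0.15 log2 units (SE, adjusted p 0.144). Next came Gamt, of creatine synthesis, listed at -0.27 ± 0.14 log2 units (SE) by the authors' deposited table. Nitrogen transporters had 11 tested genes, 0 called, 2 at an unadjusted p under 0.05 and a median of -0.07. These 2 had low counts, namely Slc25a29, a carrier of basic amino acids, averaging 22.9 normalized counts, and Rhbg, an ammonia transporter of pericentral cells, averaging 27.6. The authors' deposited table put their changes at -0.87 ± 0.32 for Slc25a29 and -0.74 ± 0.27 log2 units (SE) for Rhbg.

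The list of mitochondrial and fumarate support had 6 tested genes, with 0 called, 0 at an unadjusted p under 0.05 and a median of -0.04. Its smallest p values belonged to Car5a, the mitochondrial carbonic anhydrase that supplies bicarbonate to Cps1, and Fh1, fumarate hydratase. The authors' deposited table put Car5a at -0.38 ± 0.21 and Fh1 at 0.13 ± 0.17 log2 units (SE). Regulators of urea cycle genes had 14 tested genes, with 0 called, 0 at an unadjusted p under 0.05 and estimates between -0.23 and 0.26. Cebpa and Hnf4a, transcription factors known to act on urea cycle genes, were put at -0.23 ± 0.12 for Cebpa and 0.10 ± 0.07 log2 units (SE) for Hnf4a by the authors' deposited table.

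**Figure D5:**
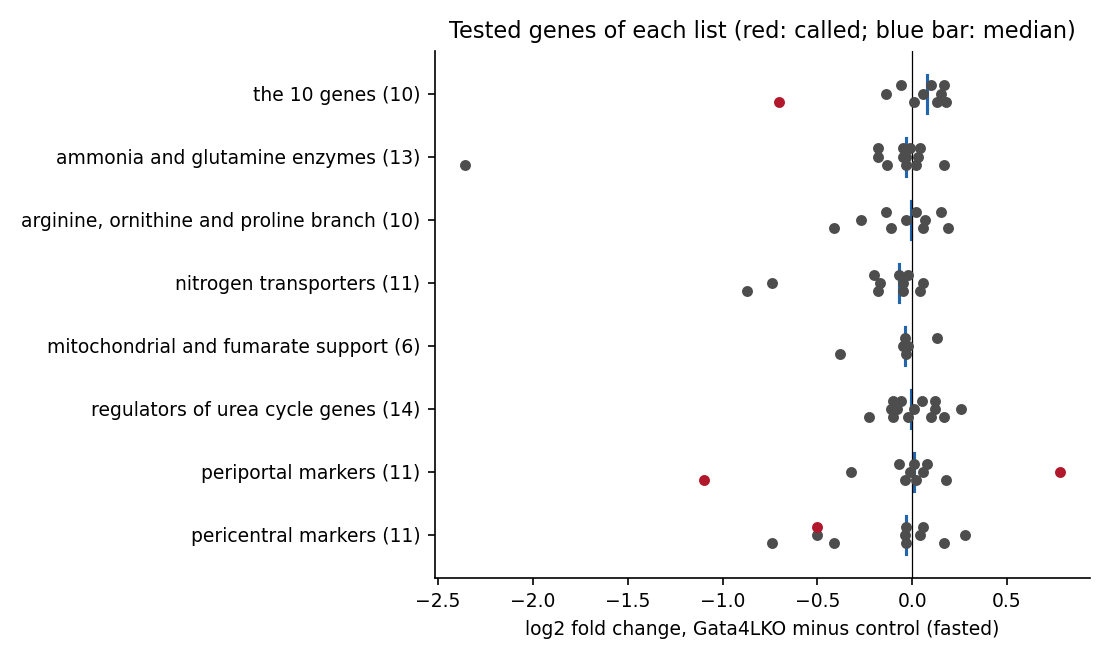
Log2 fold change between fasted Gata4LKO and fasted Control livers (x axis) of the 10 genes and of the tested genes of 7 lists (rows, number of genes in brackets); each point is a gene, red marks a called gene and the blue bar the median of the list. The medians lie between -0.07 and 0.08, Otc is the called gene of the first row, and the other called points are Aldh1b1, Etnppl and Gulo.

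The urea cycle enzymes are enriched around the portal vein, so markers of both ends of the liver lobule were read beside them. Over all tested genes, 2.19% were called and 11.4% stood at an unadjusted p under 0.05. Periportal markers, a list that includes Gls2, had 1 lower and 1 higher call among 11 tested genes. In that list 3 stood at an unadjusted p under 0.05, and the median was 0.01. Aldh1b1, an aldehyde dehydrogenase, fell, at -1.10 ± 0.30 log2 units (SE, adjusted p 0.0142), and Etnppl, which breaks down phosphoethanolamine, rose, at 0.78 ± 0.19 (SE, adjusted p 0.00448), in the authors' deposited table of DESeq2 results. Pericentral markers had 1 lower and 0 higher calls among 11 tested genes and a median of -0.03, with estimates between -0.74 and 0.28. The 4 of them at an unadjusted p under 0.05 all had negative estimates. The called gene was Gulo, the last enzyme of vitamin C synthesis, listed at -0.50 ± 0.10 log2 units (SE) by the authors' deposited table, which put Axin2, a Wnt target that was not called, at -0.50 ± 0.17 (SE). The other two at an unadjusted p under 0.05 were Rhbg, an ammonia transporter, at -0.74 ± 0.27, and Tbx3, a transcription factor, at -0.41 ± 0.16 log2 units (SE) in the authors' deposited table. The highest estimates of the list were those of the cytochromes P450 Cyp2c29, at 0.28 ± 0.26, and Cyp1a2, at 0.17 ± 0.29 log2 units (SE) in the same table.

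The targeted gene and the makeup of the samples were checked in the same table. Gata4 was not lower in livers labelled Gata4LKO, where the authors' deposited table of DESeq2 results put it at 0.31 ± 0.15 log2 units (SE, adjusted p 0.361), with a 95% interval from 0.03 to 0.60 and an unadjusted p of 0.0324. The estimate of the targeted gene thus lay on the side against the label, though it was not called. Which exons are floxed is not in the labels, and gene-wide counts do not check a deletion of some of them. Directions here rest on the name of the result and on the genes with 1 read, since no label states which group was set over which. Defining hepatocyte markers were abundant, with a mean of 1107247 normalized counts for Alb, 0 of 6 called, 2 at an unadjusted p under 0.05 (Ttr and Apob, with estimates of 0.22 and 0.16) and estimates between -0.01 and 0.22. Tested markers of sinusoidal endothelial cells (8), stellate cells (8), cholangiocytes (4) and lymphocytes and neutrophils (1) had 0 calls by the authors' DESeq2 Wald test. At an unadjusted p under 0.05 stood 3, 0, 0 and 1 of them, beside 11.4% of all tested genes. The 3 endothelial markers were Fcgr2b (0.29 ± 0.12), Clec4g (0.25 ± 0.12) and Lyve1 (-0.71 ± 0.33 log2 units, SE), and the median of their list was 0.21. The lymphocyte gene was Cd3e, at -1.10 ± 0.55 (SE) and a mean of 8.44 normalized counts. In the red blood cell list 1 of 4 was called, Alas2, which the authors' deposited table put at -0.41 ± 0.12 log2 units (SE). The 3 globin genes of that list were not called. Their estimates were 0.04 ± 0.41 for Hba-a1, -0.03 ± 0.37 for Hbb-bs and 0.30 ± 0.31 log2 units (SE) for Hbb-bt. Fabp2, of the intestine list, was put by the authors' deposited table at -1.25 ± 0.18 log2 units (SE) and called lower, while the defining gut genes Vil1 and Lct had means of 0.858 and 0.129 normalized counts, and the kidney gene Slc34a1 had 0.205. Values of these markers in each liver are not used here, and their part in the fall of Otc was not tested.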

How the data were processed

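Per the labels' protocols, a stranded KAPA kit was used on total RNA of frozen liver. The authors used FastQC, STAR 2.6.0c, mm10 and DESeq2, per the submitters' processing notes (read counter, strand setting: not given in the sources used here). Each deposited mean is an expression signal, counts divided by size factors and averaged by the authors, as named per the file headers. Effects are deposited on the log2 scale, each beside a standard error, and the deposited score is the Wald statistic. The deposited p-values are of that test, with an adjusted p for 13335 genes that equals a Benjamini-Hochberg adjustment within 7.0e-15. The table holds no values per liver and was not refitted.

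The groups compared were worked out from genes with 1 read in 1 library. Relative size factors, read from their means, ran from 0.905 to 1.101, and the means summed to 1.80e+07 normalized counts. Of 32 readings of the table, 2 gave the deposited estimates and standard errors of these genes within 1e-06. These 2 were Gata4LKO minus Control in fasted livers and refed minus fasted in Control livers, in an interaction model over all 15 libraries. The closest other readings differed by 4.36e-05 and were the same comparisons with the sign reversed. The genotype reading was chosen by the name of the result. Every direction rests on that choice and on this small difference in the genes with 1 read. Same-group titles share a number of unstated meaning, so a shared cage, litter or day cannot be told apart from the group. The p-values rest on the fitted dispersion of each gene and do not account for such a shared factor.

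Intervals are the estimate ± 1.96 standard errors. The implied coefficient of variation, a fitted value, is the square root of 2 times the squared standard error (natural log scale) minus the inverse of the mean. Gene positions and exon lengths are from GENCODE M21 (the same build as mm10), and promoters from RefSeq. Named genes were the 10 members, Gata4, from each pathway list the called genes and the 2 of smallest p, and from each cell type list the called genes. Other genes were named for contrast after their values were seen. The members and lists were chosen with earlier results of these data known. A gene of the lists was left out of them and is not reported here, so every count and median of the lists is without it. Python 3.11.15, pandas 2.3.3 and scipy 1.17.1 were used, and the adjustment and the spread formula were tested on simulated data. The alternatives tried were other sets of genes for the adjustment, centred log2 fold changes and another threshold.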

Additional observations from a re-analysis of the deposited data

How the results depend on the processing

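Otc was called lower under each of the 5 alternatives run for every member (p-values adjusted over all genes that have one, over means of 10 or more, or over means of 100 or more, and estimates centred on all tested genes or within 10 bins of the mean), with adjusted p between 3.89e-17 and 3.15e-16. The other 9 members were not called under any of these 5, with adjusted p of 0.561 or more, and the count of called members also stayed at 1 with a threshold of 0.1. These 5 alternatives kept the deposited standard errors and changed the genes adjusted over or the centre. They could therefore hardly have changed a call as strong as that of Otc. The sign of Slc25a13 turned negative with both centrings, at adjusted p of 0.9999 and 0.993. The median of the members was 0.08 as deposited, 0.08 with every row of a symbol and 0.07 with either centring. Among other pathway genes, 0 were called as deposited and under the 3 other adjustments, and 1, Got2, with either centring. No paired analysis was possible because single livers have no values in the table. Leaving out each liver in turn, other normalizations and filters on low counts need such values too and were not run. The depth of each library is not given by the table, so that precision rests on the deposited standard errors.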

Other observations

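Otc is X-linked, and its neighbours on the chromosome did not share 1 direction in the authors' deposited table. The nearest tested gene upstream, Rpgr, at 35.4 kb, had a log2 fold change of 0.11 ± 0.17 (SE) and was not called. Downstream, Tspan7, a tetraspanin gene at 164 kb, rose at 0.44 ± 0.13 (SE, adjusted p 0.0297 in the authors' deposited DESeq2 table). Mid1ip1, a regulator of lipid synthesis at 394 kb, fell at -0.65 ± 0.18 (SE, adjusted p 0.0221 in the authors' deposited DESeq2 table). Of 372 tested X-linked genes 10 were called (2.69%), 6 of them lower, against 2.19% of all tested genes, and their median log2 fold change was 0.02. These genes were looked up after the value of Otc was seen.

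Among the 91 called genes with a mean of at least 1000 normalized counts, 19 had a larger absolute log2 fold change than Otc, and over all 292 called genes 124 did. By p, Otc ranked 4th of the 13335 tested genes, at a standard error of 0.08 on the log2 scale.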
